A study of Bos taurus with 96 samples.

Results

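The 10 genes described here act in the uptake of fatty acids by cells or in its control and were followed across bovine fat depots and muscle: LPL, GPIHBP1, ANGPTL4, CD36, FABP3, FABP4, FABP5, SLC27A1, VLDLR and CAV1. They were chosen by their role in fatty acid uptake, with earlier results of these data known. Probes were assigned to them through the bovine RefSeq accession that the array design gives, or through the probe names in the study's tables. Of these 10 genes, 9 had at least 1 probe, 26 probes in all among the 34227 probes tested, and GPIHBP1 was not analysed here.

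The uptake of fatty acids from the blood begins on the wall of the capillary. Lipoprotein lipase, the product of LPL, is made by adipocytes and muscle fibres, is carried to the capillary surface and there releases fatty acids from the triglyceride of lipoproteins. ANGPTL4 encodes a secreted inhibitor of that enzyme, and the VLDL receptor (VLDLR) binds triglyceride rich lipoproteins beside it. CD36 and the fatty acid transport protein FATP1 (SLC27A1) move the released acids across the cell membrane, and caveolin 1 (CAV1) builds the caveolae, the membrane pits in which adipocytes are rich. Inside the cell the acids are carried by fatty acid binding proteins, of which FABP4 is the adipocyte form, FABP3 the heart and muscle form, and FABP5 a form found in skin, fat and macrophages.

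Total RNA of 96 tissue samples from steers had been hybridised to 1-colour Agilent bovine arrays, 1 sample to an array and 4 arrays to a slide. Fat was taken from under the skin of the rump (SC), from between the muscles (Inter), from around the kidney (Kid), from the omentum (Omen) and, as intramuscular fat dissected out of the longissimus dorsi, from within the muscle (IMF), each with 12 arrays, 4 from Angus, 4 from Hereford and 4 from Wagyu x Angus steers. Longissimus dorsi muscle with its marbling fat in place (LD) had 36 arrays. All fat samples came from steers kept on pasture right after weaning, as did 24 of the LD samples (8 per breed), whereas the other 12 LD samples (4 per breed) came from steers that were fed a supplement in that period. The labels give 259 days in a feedlot for every sample, and the series describes the steers as 26 months old. According to the methods, part of the LD samples came from an earlier slaughter, and the labels do not say which. The methods name 5 steers per breed, so arrays of different depots share animals that the labels do not identify, and p-values between depots or over several depots measure the spread between these arrays, not between independent animals.

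A level is given here as log2 of the processed spot signal minus the array's 75th percentile of that signal, so that 0 is the level of the probe at that percentile. Where a gene has several probes, the probe with the highest mean level over all 96 arrays stands for it. Probes differ in how brightly they hybridise, so levels were compared between tissues and not between genes. Differences were tested with limma on all probes, two-sided, with Benjamini-Hochberg adjustment over the 34227 probes, and a difference is called where the adjusted p is under 0.05. In dissected tissue, fewer cells of a type and less RNA per cell cannot be told apart.

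Between 80.9% and 99.6% of probes were well above background on an array, and 23 of the 26 probes of the genes described were so on all 96 arrays. The tissues were checked against marker genes. The mean level of 14 skeletal myofibre genes was -3.90 in SC (lowest -4.27, highest -3.14), 6.74 in IMF (5.58 to 7.47) and 8.29 in LD from pasture (8.04 to 8.59), and all 14 were called higher in IMF than in SC. The mean level of 11 adipocyte genes was 3.41 in SC (3.14 to 3.78), 2.40 in IMF (0.97 to 3.27) and -0.21 in LD from pasture (-1.48 to 1.10). On the log2 scale the myofibre score of IMF thus differed by 10.6 from that of SC and by -1.55 from that of LD, and the part of muscle RNA in the IMF differences below was not tested. In Inter, 1 Wagyu x Angus array had a myofibre score of 5.20 where the other 11 reached at most 1.66, in Kid the highest was -0.28, and in Omen it was -3.67. No myofibre or adipocyte marker was below background on every array of a group. Scanning fell on 3 days, and all 12 IMF arrays were scanned on the third, all 12 Inter arrays on the second and 11 of the 12 SC arrays on the first, so scan day is close to confounded with several depot pairs.

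LPL was lower in IMF than in SC, Inter, Kid and Omen, between which it did not pass the test with each array scaled by its 75th percentile. The LPL level ran from 4.95 to 6.13 in SC (median 5.62), from 5.15 to 6.02 in Inter (5.76), from 5.46 to 6.57 in Kid (5.71) and from 4.92 to 6.21 in Omen (5.60). In IMF it ran from 3.14 to 5.62 (median 4.68), and in LD from pasture from 1.52 to 4.00 (median 2.65). SC, Inter, Kid and Omen overlapped widely, 8 of 12 IMF arrays lay below every SC array, and no LD array reached an SC array. LPL was 1.84-fold lower in IMF than in SC (log2 difference -0.88, standard error 0.21, adjusted p = 0.000675) and 7.65-fold lower in LD than in SC (adjusted p = 3.49e-16). Against SC, LPL in Inter differed by 0.03 (standard error 0.13, adjusted p = 0.885), LPL in Kid by 0.24 (0.13, adjusted p = 0.143) and LPL in Omen by -0.09 (0.15, adjusted p = 0.659). The order of the mean levels was Kid, Inter, SC, Omen and IMF, in which only the last step, Omen to IMF, was called (difference 0.79, adjusted p = 0.00441). The differences of LPL from SC in the other depots moved with the processing. After quantile normalization LPL was called higher than SC in Inter (0.28, adjusted p = 0.0498) and Kid (0.43, 0.00262), and in Kid also after normexp correction (0.43, 0.00244) and centring on the mean (0.31, 0.0407). In the authors' unscaled values it was called higher in all 3 depots, by 1.04 (Inter), 1.15 (Kid) and 0.73 (Omen). With scan day as a block over all arrays the differences from SC were -0.06 for Inter (adjusted p = 0.86), 0.16 for Kid (0.53) and -0.70 for Omen (0.0145), the last of them called, and LPL was called higher than in Omen in both Inter (0.64, 0.0354) and Kid (0.86, 0.00183).

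ANGPTL4, the inhibitor of the lipase, was highest in SC and lowest in IMF, below even the muscle. Its level ran from 3.59 to 5.16 in SC (median 4.62), from 3.23 to 4.38 in Omen (3.97), from 2.69 to 4.21 in Inter (3.76) and from 2.71 to 3.96 in Kid (3.55). In IMF it ran from 1.86 to 3.81 (median 2.52), and in LD from pasture from 2.38 to 3.83 (median 3.26). Of the 12 IMF arrays, 11 lay below every SC array, and 5 lay below every LD array. ANGPTL4 was 3.96-fold lower in IMF than in SC (difference -1.99, standard error 0.20, adjusted p = 8.11e-09), 2.06-fold lower in Kid (adjusted p = 4.6e-05), 1.84-fold lower in Inter (adjusted p = 0.000477) and 1.52-fold lower in Omen (adjusted p = 0.00447). Against LD from pasture, IMF was 1.58-fold lower (difference -0.66, standard error 0.17, adjusted p = 0.000518). That difference was -0.69 among the arrays of the third scan day alone, but it was not called after quantile normalization (-0.27, adjusted p = 0.123) or normexp background correction (-0.27, adjusted p = 0.127), and it was 0.04 in the authors' unscaled values (adjusted p = 0.875). In the authors' unscaled values ANGPTL4 was not called against SC in Inter (0.08, adjusted p = 0.742), Kid (-0.16, 0.555) or Omen (0.26, 0.286). ANGPTL4 in Omen was not called against SC after normexp correction (adjusted p = 0.0527) or with a block for scan day on this pair (0.0886). ANGPTL4 has a single probe on the array.

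**Figure D1:**
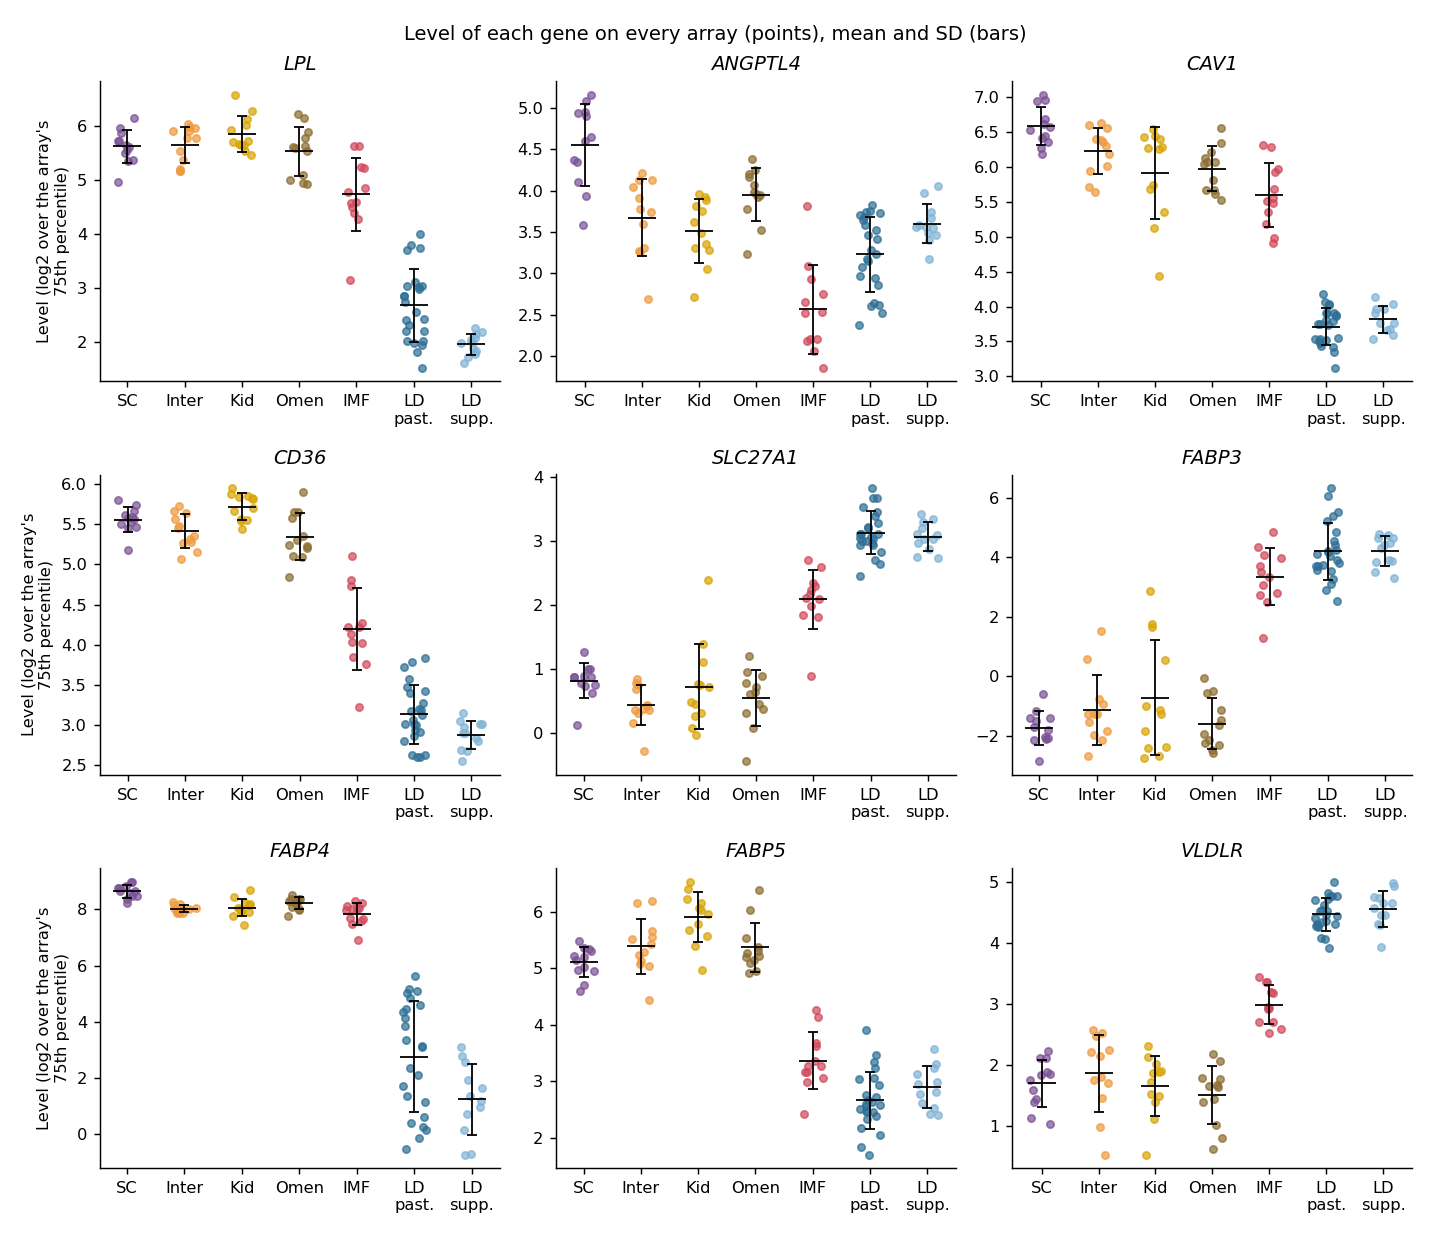
Level of each of the 9 genes on every array, as log2 over the array's 75th percentile, by tissue (SC subcutaneous, Inter intermuscular, Kid kidney, Omen omental, IMF intramuscular fat, LD muscle by diet); points are arrays, black bars the mean and SD. FABP3, SLC27A1 and VLDLR rise from the other fat depots to IMF and again to LD, LPL, CD36, FABP4, FABP5 and CAV1 fall in that order, and ANGPTL4 is lowest in IMF.

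Of the proteins at the membrane, CD36 was lower and SLC27A1 higher in IMF. CD36 ran from 5.18 to 5.80 in SC (median 5.57), from 3.22 to 5.10 in IMF (4.18) and from 2.60 to 3.83 in LD from pasture (3.09), with no overlap between SC and either of the others. It was 2.57-fold lower in IMF than in SC (difference -1.36, standard error 0.15, adjusted p = 2.68e-08), and its 4 probes ranged from -0.96 to -2.81, the latter for the probe listed in the study's tables, which gave -4.35 for LD minus SC where the brightest gave -2.42. SLC27A1 ran from 0.12 to 1.27 in SC (median 0.88), from 0.89 to 2.70 in IMF (2.15) and from 2.45 to 3.83 in LD from pasture (3.09). Of the IMF arrays, 11 lay above every SC array, and LD and SC did not overlap. SLC27A1 was 2.42-fold higher in IMF than in SC (difference 1.27, standard error 0.15, adjusted p = 1.05e-07) and 2.06-fold lower in IMF than in LD (adjusted p = 7.26e-09).

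CAV1 ran from 6.19 to 7.04 in SC (median 6.56), from 4.91 to 6.32 in IMF (5.53) and from 3.12 to 4.18 in LD from pasture (3.75). IMF lay between SC and LD, overlapping SC on 2 arrays and LD on none. CAV1 was 1.99-fold lower in IMF than in SC (difference -0.99, standard error 0.15, adjusted p = 4.16e-06) and 7.36-fold lower in LD than in SC (adjusted p = 4.49e-26). VLDLR went the other way, with 1.04 to 2.23 in SC (median 1.80), 2.52 to 3.44 in IMF (2.95) and 3.92 to 5.01 in LD from pasture (4.45). The 3 tissues did not overlap for VLDLR, which was 2.45-fold higher in IMF than in SC (difference 1.29, standard error 0.14, adjusted p = 2.79e-08) and 6.85-fold higher in LD than in SC (adjusted p = 1.23e-23).

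Among the carriers inside the cell, FABP3 had the largest difference of the 9 genes between IMF and SC. Its level ran from -2.85 to -0.59 in SC (median -1.76), from 1.31 to 4.85 in IMF (3.44) and from 2.54 to 6.33 in LD from pasture (4.08). Every IMF array lay above every SC array, and FABP3 was 33.9-fold higher in IMF (difference 5.08, standard error 0.31, adjusted p = 7.97e-13) and 61.5-fold higher in LD than in SC (adjusted p = 1.24e-20). FABP5 ran from 4.60 to 5.48 in SC (median 5.17) and from 2.42 to 4.26 in IMF (3.27) without overlap, and was 3.35-fold lower in IMF (difference -1.74, standard error 0.16, adjusted p = 1.55e-09).

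FABP4, the adipocyte carrier, was 1.75-fold lower in IMF than in SC and 58.9-fold lower in LD than in SC (adjusted p = 3.36e-12). It ran from 8.22 to 8.98 in SC (median 8.65), from 6.91 to 8.30 in IMF (7.97) and from -0.52 to 5.62 in LD from pasture (3.11). The difference between IMF and SC was -0.81 (standard error 0.13, adjusted p = 6.9e-06), with 10 of 12 IMF arrays below every SC array. Its probe was among the brightest of each fat array, between the 4th and the 14th of all tested probes on the SC, Inter, Kid and Omen arrays, where its unscaled log2 signal stayed between 17.4 and 18.3, so a compressed signal in that range was not tested. A dimmer FABP4 probe, listed in the study's tables, gave a difference of -1.50 (standard error 0.26, adjusted p = 1.98e-05) between the IMF and SC arrays. For LD minus SC it gave -7.585 (standard error 0.60), where the brighter probe gave -5.88.

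All 9 genes were thus called between IMF and SC, 3 higher (FABP3, SLC27A1 and VLDLR) and 6 lower, in a comparison in which 64.2% of all probes were called, 31.2% higher and 33.0% lower. The groups did not overlap for 4 of the 9, against 14.9% of all probes. The median difference of the 9 genes was -0.88, and that of all probes was 0.00 (-0.0029). All 26 probes of the 9 genes were called with the sign of the probe that stands for the gene, 8 higher and 18 lower, and leaving out any 1 array changed none of the 9 calls. Only 1 SC array shared the scan day of the IMF arrays, and with a block for scan day fitted to these 2 depots alone LPL, FABP4 and CAV1 were no longer called (adjusted p = 0.469, 0.436 and 0.301), as they were not in the authors' unscaled values. With scan day as a block in a fit over all 96 arrays, where the other tissues link the days, all 9 were called (50.7% of all probes), with LPL at -1.60 (adjusted p = 2.49e-08), FABP4 at -2.36 (9.34e-05) and CAV1 at -0.99 (8.71e-06).

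IMF was also compared with the other fat depots, in comparisons that share the IMF arrays. In IMF minus Inter 8 of the 9 genes were called (62.7% of all probes, 32.8% higher and 30.0% lower), in IMF minus Kid 7 (55.8%, 28.4% higher and 27.4% lower) and in IMF minus Omen all 9 (56.2%, 27.8% higher and 28.4% lower), always with FABP3, SLC27A1 and VLDLR higher and the other called genes lower. The groups did not overlap for 2, 3 and 3 of the genes, against 8.48%, 8.53% and 8.44% of all probes. IMF and Omen were scanned together on the third day in 12 and 10 arrays, and within that day all 9 genes were called again (55.8% of all probes), with differences of 4.95 for FABP3, 1.49 for VLDLR, 1.47 for SLC27A1, -0.91 for LPL, -1.50 for ANGPTL4 and -2.06 for FABP5. CAV1 between IMF and Omen was not called with slide as a random block (adjusted p = 0.0844), with all non-control probes (0.0527) or by the methods' t-test after adjustment (0.0508), and FABP4 was not with scan day as a block over all arrays (-0.53, 0.253). No scan day held both IMF and Inter arrays, and with scan day as a block over all 96 arrays 7 genes were called between them (52.7% of all probes), with FABP3 at 3.92, FABP5 at -1.75, LPL at -1.54 and CD36 at -1.52, while CAV1 was not (adjusted p = 0.115). Between IMF and Kid, which had a scan day in common through 1 Kid array, a block for scan day on the pair left 2 genes called (CD36 and FABP5; 4.94% of all probes), and the block over all arrays gave 8 (52.5%).

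**Figure D2:**
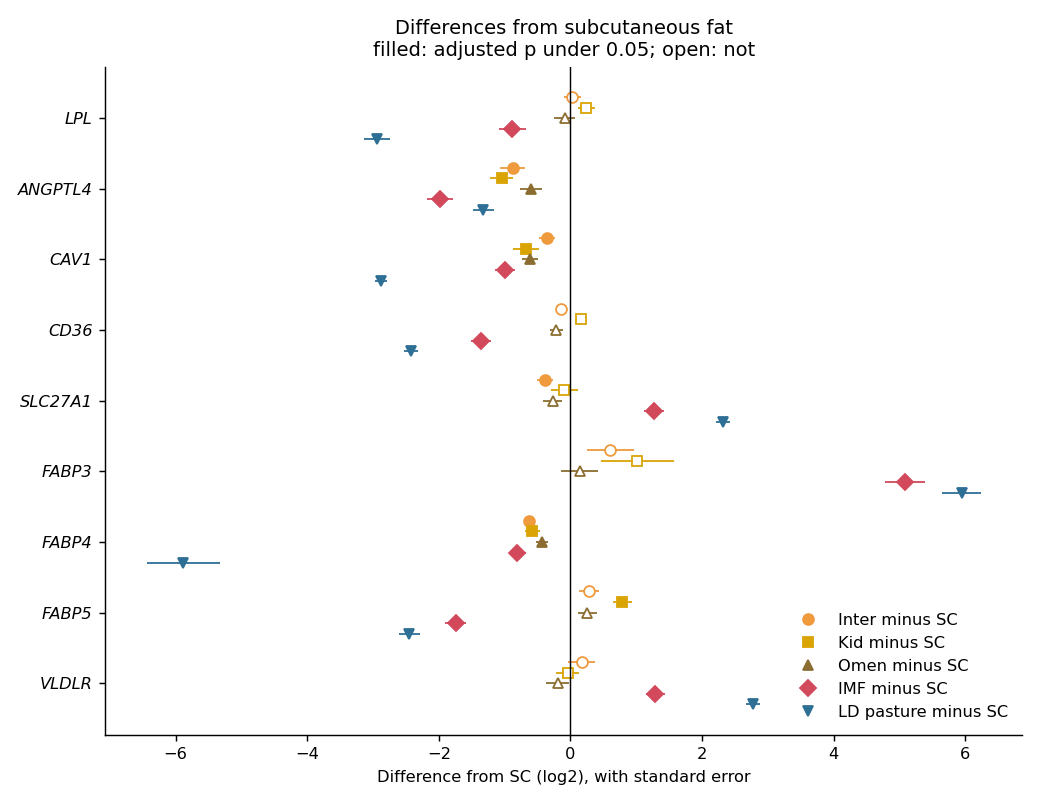
Difference from subcutaneous fat in log2 for each gene in Inter, Kid, Omen, IMF and LD from pasture, with its standard error; filled symbols mark an adjusted p under 0.05. IMF lies between the other fat depots and LD for every gene but ANGPTL4, for which IMF is lowest at -1.99.

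LD from pasture differed from SC in all 9 genes, where 82.9% of all probes were called (42.7% higher and 40.2% lower), and 8 of the 9 did not overlap, where 39.1% of all probes did not. IMF differed from LD in all 9 as well (75.3% of all probes, 36% higher and 39.3% lower), and 3 of the 9 did not overlap (19.5% of all probes), with LPL, CD36, FABP4, FABP5 and CAV1 higher in IMF and ANGPTL4, FABP3, SLC27A1 and VLDLR lower, and the same 9 were called among the arrays of the third scan day alone (73.6% of all probes). For FABP3 the lower level in IMF (1.81-fold, adjusted p = 0.0175) was not called after quantile normalization (adjusted p = 0.238), normexp correction (0.27), in the authors' values (0.8) or with slide as a random block (0.119). SLC27A1 in IMF minus LD shrank from -1.04 to -0.69 after quantile normalization and -0.65 after normexp correction, and was not called in the authors' values (-0.35, adjusted p = 0.0629).

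Within IMF many probes varied with the myofibre score, and nothing particular to the 9 genes is read from their correlations with it. Of the 32484 probes measured on all 12 IMF arrays, 44.6% had a Pearson's r at least as far from 0 as SLC27A1, 19% as LPL and 11.4% as CAV1. Over the 12 IMF arrays, the myofibre score correlated positively with VLDLR (Pearson's r = 0.86, Spearman's rho = 0.86), FABP3 (0.80 and 0.71) and SLC27A1 (0.58 and 0.52), and negatively with CAV1 (-0.86 and -0.88), LPL (-0.79 and -0.89), FABP4 (-0.70 and -0.64) and CD36 (-0.675 and -0.53). By permutation test of r with adjustment over the 9 genes, the adjusted p was 0.00222 for VLDLR, CAV1 and LPL, 0.00261 for FABP3, 0.0154 for FABP4, 0.0219 for CD36 and 0.0469 for SLC27A1. By rho, the adjusted permutation p stayed under 0.05 for LPL (0.00157), CAV1 (0.00157), VLDLR (0.00195) and FABP3 (0.0256), and it was 0.0536 for FABP4 and 0.114 for both CD36 and SLC27A1.

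ANGPTL4 (r = -0.20, rho = 0.07, adjusted permutation p = 0.552) and FABP5 (r = -0.37, rho = -0.245, adjusted permutation p = 0.275) did not pass. Without the 2 arrays farthest from the median score, r was 0.755 for VLDLR, -0.84 for CAV1, -0.75 for LPL, 0.69 for FABP3, -0.66 for CD36, -0.55 for FABP4 and 0.34 for SLC27A1, so the relation of SLC27A1 rested on those arrays, and it was not called after quantile normalization (adjusted permutation p = 0.0672) or in the authors' values (0.0721). All 12 arrays were scanned on 1 day.

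**Figure D3:**
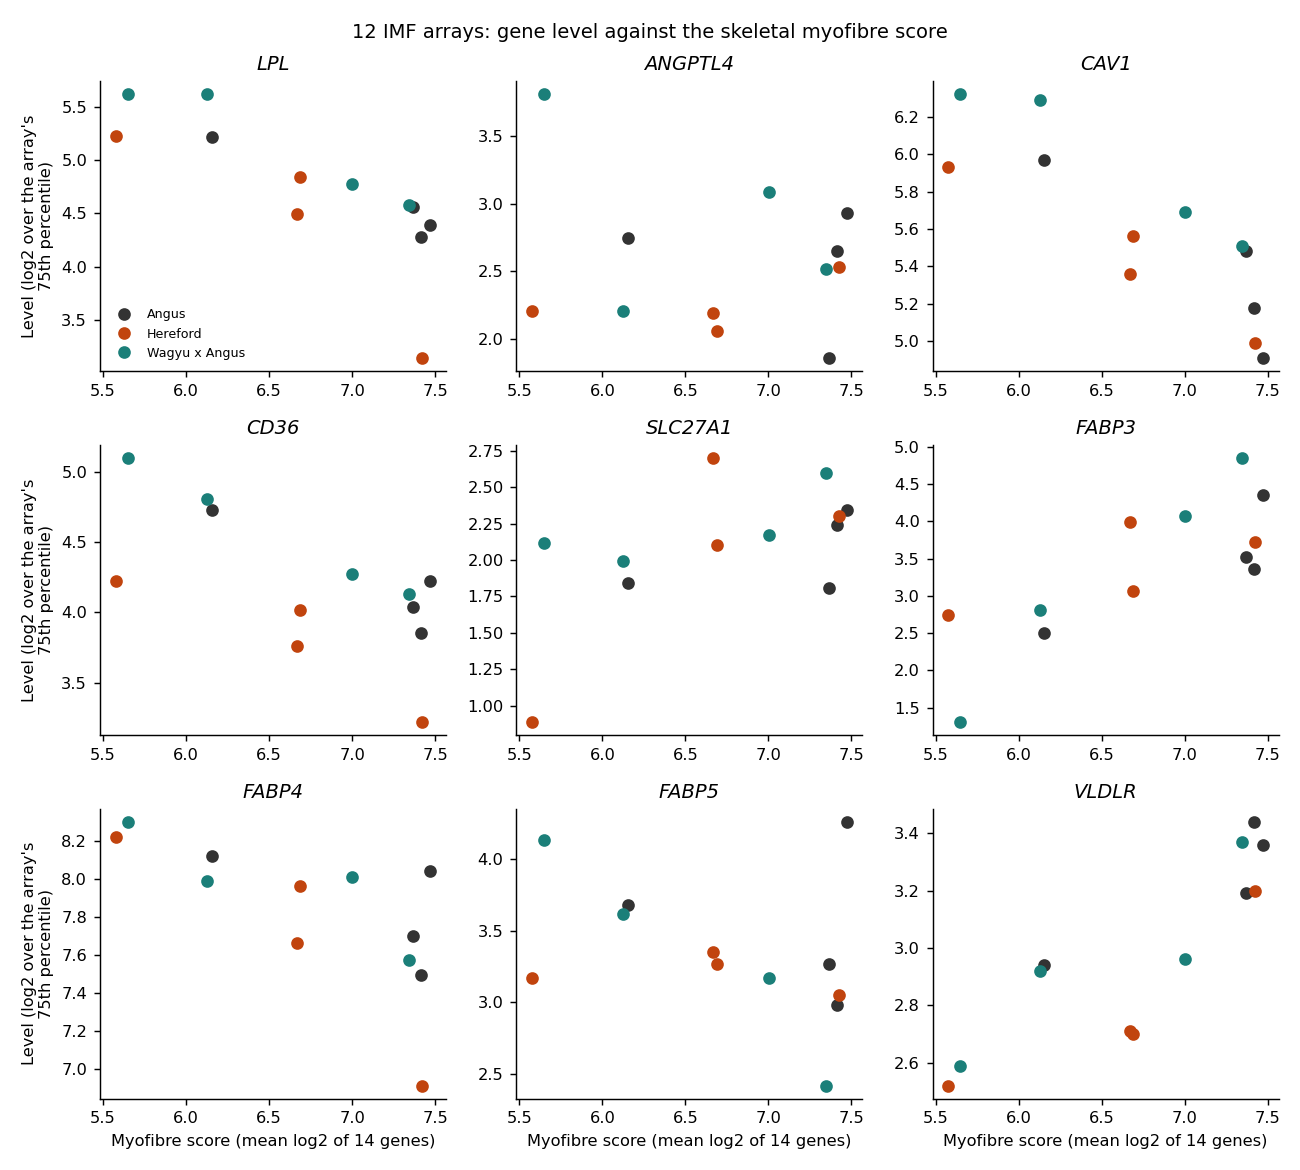
Level of each gene (log2 over the array's 75th percentile) against the mean level of 14 skeletal myofibre genes on the 12 IMF arrays, coloured by breed. VLDLR, FABP3 and SLC27A1 rise with the score, CAV1, LPL, FABP4 and CD36 fall with it, and ANGPTL4 and FABP5 spread without a clear slope.

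The 3 fat depots away from the skin were each compared with SC, and their shares of genes called lay near those of all probes. In Inter minus SC 4 of 9 were called, all lower (ANGPTL4, FABP4, SLC27A1 and CAV1; 48.8% of all probes, 21.6% higher and 27.2% lower), in Kid minus SC 4 (ANGPTL4, FABP4 and CAV1 lower, FABP5 higher; 41.7%, 19.4% higher and 22.2% lower) and in Omen minus SC 3 (ANGPTL4, FABP4 and CAV1, all lower; 45.7%, 20.5% higher and 25.2% lower). None of the 9 genes was free of overlap in these pairs (3.75%, 3.52% and 3.97% of all probes were). CAV1 was 1.28-fold lower than SC in Inter (adjusted p = 0.0198), 1.59-fold lower in Kid (adjusted p = 0.00857) and 1.53-fold lower in Omen (adjusted p = 0.00023). The Inter arrays include the Wagyu x Angus array with a myofibre score of 5.20. CAV1 was 6.01 on that array, with the next of its breed in Inter at 6.56. Without the 3 Kid arrays highest in macrophage markers, on which FABP3 was also highest, CAV1 in Kid differed from SC by -0.36 in place of -0.67 (adjusted p = 0.0269), and CD36 (0.20, 0.0352) and SLC27A1 (-0.40, 0.0136) were called there as well (6 of 9 genes, 40.4% of all probes). After quantile normalization CAV1 was not called in Inter (-0.08, adjusted p = 0.587) or Kid (-0.46, 0.0621), nor after normexp correction (0.66 and 0.0638), and in Inter it was also lost with centring on the mean (0.109), the mean over its probes (0.0881), slide as a random block (0.0574) and the spread of all fat arrays (0.0566). In Omen it was lost with a block for scan day on this pair (-0.17, adjusted p = 0.815). FABP5 ran from 4.97 to 6.53 in Kid, above every SC array on 10 of 12, and was 1.73-fold higher there (difference 0.79, standard error 0.15, adjusted p = 0.000144), but its probe listed in the study's tables differed by 0.21 (adjusted p = 0.283). On the first scan day, which held 5 Kid and 11 SC arrays, these 4 genes were called in Kid minus SC with the same signs, and 5 of the 9 were called in all (30.1% of all probes). SLC27A1 in Inter was 1.31-fold lower than in SC (adjusted p = 0.0093), a call that was lost with the mean over its probes (-0.15, adjusted p = 0.272), scan day as a block over all arrays (-0.27, 0.301), centring on the mean (0.0738) and the spread of all fat arrays (0.0807), and that turned to 0.65 in the authors' unscaled values.

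The median difference of the 9 genes was -0.14 for Inter, -0.04 for Kid and -0.21 for Omen, beside -0.05, -0.01 and -0.03 over all probes. The direction for FABP4 in these 3 depots depended on the processing and on the probe. The brighter probe differed from SC by -0.625 in Inter, -0.58 in Kid and -0.43 in Omen (log2; adjusted p = 1.17e-06, 0.000225 and 0.000517), whereas the dimmer probe differed by 0.34, 0.26 and 0.21 (adjusted p = 0.122, 0.27 and 0.397). After quantile normalization the brighter probe differed from SC by 0.06 in Inter and 0.04 in Omen. After normexp correction it was called higher than SC in Inter (0.09, adjusted p = 0.0153) and not called in Kid (0.01, 0.836) or Omen (0.06, 0.122). Its differences were larger with scan day as a block over all arrays, -1.22 for Inter (adjusted p = 0.0478), -0.95 for Kid (0.0679, not called) and -1.83 for Omen (0.00323). CD36 had 4 probes that disagreed as well: 1 was called lower than SC in Inter, Kid and Omen (-0.95, -0.44 and -1.19) and 1 was called higher (0.52, 0.51 and 0.32), while the brightest was called in none.

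Inter, Kid and Omen were also compared with each other. CD36 was 1.23-fold lower in Inter than in Kid (adjusted p = 0.0182) and was the only gene called there (15.4% of all probes, 7.84% higher and 7.58% lower). In Inter minus Omen limma called none of the 9 (13.6% of all probes, 5.87% higher and 7.69% lower), with 1 at an unadjusted p under 0.05 (9876 of the 34227 probes). The methods' t-test on the same values called none either after Benjamini-Hochberg adjustment. In Kid minus Omen 3 were called (12.1% of all probes, 6.34% higher and 5.78% lower), with CD36 1.30-fold and FABP5 1.44-fold higher and ANGPTL4 1.36-fold lower in Kid (adjusted p = 0.0183, 0.0469 and 0.044). On the second scan day, which held 12 Inter, 6 Kid and 2 Omen arrays, none of these 4 differences was called (8.48% of all probes in Inter minus Kid and 0.172% in Kid minus Omen). There CD36 was at 0.67 and FABP5 at 0.695 in Kid minus Omen, both larger than over all arrays (0.37 and 0.53), while ANGPTL4 was at 0.04 and CD36 in Inter minus Kid at -0.22. The FABP5 call was also lost after quantile normalization (adjusted p = 0.0729) and normexp correction (0.0655), with its probe listed in the study's tables (0.0504), with the replicate block (0.085) and under most other settings tried. ANGPTL4 in Kid minus Omen was not called with the arrays centred on the mean (0.169), with all non-control probes (0.0554), with slide as a random block (0.11), with the replicate block (0.098), in the authors' values (0.166) or with scan day as a block over all arrays (-0.28, 0.33). CD36 in Kid minus Omen was not called with that centring (0.0556) or with slide as a random block (0.0572). CD36 in Inter minus Kid was not called after quantile normalization (0.0629), with that centring (0.0744), as the mean over its probes (0.0848) or with slide as a random block (0.0796). With scan day over all arrays the 3 genes called in Kid minus Omen were CD36 (0.65, 0.000209), LPL (0.86, 0.00183) and FABP3 (1.45, 0.0283). Without the 3 Kid arrays highest in macrophage markers CD36 alone was called (0.41, 0.0201; 10.9% of all probes), with ANGPTL4 at -0.42 (0.0892) and FABP5 at 0.37 (0.175). Over the 5 depots together the moderated F test called all 9 genes, against 87.2% of all probes.

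FABP3 was uneven within kidney fat. Its level ran from -2.73 to 2.88 over the 12 Kid arrays with an SD of 1.94, where the SD was 0.58 in SC. On 3 Kid arrays, 1 Angus and 2 Hereford, FABP3 was 1.65, 2.88 and 1.75, and on the other 9 it was at most 0.54. The same 3 arrays had the lowest CAV1 levels of Kid (5.36, 4.44 and 5.13), FABP5 levels of 6.40, 6.53 and 6.16 in a Kid range of 4.97 to 6.53, and the highest SLC27A1 levels (1.12, 2.40 and 1.40). Their macrophage scores, the mean level of 10 macrophage genes, were the highest of Kid (3.03, 3.76 and 2.97), their adipocyte scores the lowest (2.95, 2.28 and 3.1), and their myofibre scores were at or below -3.70. The part of other cell types in the FABP3 level of Kid was not tested, and the FABP3 difference between Kid and SC was not called (1.01, standard error 0.55, adjusted p = 0.147), though it was in the authors' unscaled values (1.86, adjusted p = 0.0058). Without the 3 arrays it was 0.08 (adjusted p = 0.877).

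Genes of the same pathway were read from lists. The counts between IMF and SC stand beside the 64.2% of all probes called there, and nothing particular to a list is read from them. Of 8 measured genes for the maturation and control of lipoprotein lipase, 7 were called between IMF and SC, 2 higher and 5 lower. The extremes were SDC1, a heparan sulphate proteoglycan of the cell surface, at -2.42 (standard error 0.20, adjusted p = 2.22e-10) and APOA5, an apolipoprotein that favours lipolysis, at 0.88 (0.17, adjusted p = 8.42e-05). Of 8 lipoprotein receptors other than VLDLR, 5 were called, 1 higher and 4 lower, from SCARB1, the HDL receptor, at -1.22 (standard error 0.11, adjusted p = 1.65e-09) to LRP8 at 0.94 (0.37, adjusted p = 0.0306). Their median differences were -0.57 and -0.55.

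Of 11 further fatty acid transport proteins, binding proteins and acyl-CoA synthetases, 7 were called between IMF and SC, 3 higher and 4 lower (median 0.15). ACSL4, a synthetase with a preference for arachidonic acid, was at -1.28 (standard error 0.10, adjusted p = 2.12e-10), and PMP2, the binding protein of peripheral myelin, was at 6.30 (0.99, adjusted p = 5.85e-06). Of 7 further caveola genes 6 were called, 4 lower with EHD2, which stabilises the caveola neck, at -1.41 (standard error 0.18, adjusted p = 2.41e-07), and 2 higher, the muscle forms CAV3 and CAVIN4, the latter at 6.38 (0.28, adjusted p = 1.39e-15). Of 6 PPAR and RXR receptors and cofactors, 5 were called, 2 higher and 3 lower, from PPARG, the adipocyte receptor that drives LPL, CD36 and FABP4, at -1.35 (standard error 0.17, adjusted p = 1.55e-07) to PPARGC1A at 1.51 (0.23, adjusted p = 4.14e-06). The adipocyte markers had 9 of 11 called, 8 lower and RETN higher by 0.92, the macrophage markers 9 of 10, all lower, and the capillary endothelium markers 7 of 11, 6 lower and FLT1 higher by 0.95.

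The genes whose levels over the 60 fat arrays were most like each member are given as a description. LPL was closest to SORD (r = 0.89), PPARG (0.89) and CEBPA (0.88), CD36 to PAPSS2 (0.95), PMM2 and CCDC167 (both 0.94), and CAV1 to CCDC3 (0.90), CDH13 (0.89) and SCRN1 (0.885). FABP3 was closest to CAMK2A (0.945), UNC93A and SMYD2 (both 0.93), SLC27A1 to PKM, TWF2 and LDHA (all 0.88), and VLDLR to MACROD1, MAP1LC3B and LARGE (all 0.87). FABP4 was closest to CST3 (0.92), TMSB10 and TMSB4X (both 0.91), FABP5 to FLI1 (0.91), NRROS and CD47 (both 0.90), and ANGPTL4 to TLCD2 (0.84), CIAPIN1 (0.82) and NMRK1 (0.815). The arrays share depots, slides and scaling, and the depot differences given above enter these correlations.

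In LD, the effect of the diet after weaning was asked of 12 supplement against 24 pasture arrays, with breed in the fit. LPL ran from 1.52 to 4.00 on pasture (median 2.65) and from 1.60 to 2.25 with supplement (median 1.98), and was 1.65-fold lower with supplement (difference -0.72, standard error 0.18, adjusted p = 0.00954). It was the only one of the 9 genes called, where 11.2% of all probes were (5.65% higher and 5.60% lower). At an unadjusted p under 0.05 there were 4 of the 9 genes, beside 8801 of the 34227 probes. FABP4 ran from -0.52 to 5.62 on pasture and from -0.72 to 3.1 with supplement, a difference of -1.51 (standard error 0.52, adjusted p = 0.0575). ANGPTL4 ran from 2.38 to 3.83 on pasture and from 3.17 to 4.06 with supplement, a difference of 0.37 (standard error 0.135, adjusted p = 0.0702). The groups overlapped for all 9 genes, as they did for every probe (0.00% without overlap). CAV1 has 11 supplement values, since 1 Wagyu x Angus spot was an outlier.

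The diet difference was also taken within scan days, which hold different breeds, and whether it differed between the days was not tested. On the first day, with 4 Hereford and 4 Wagyu x Angus arrays of each diet, LPL differed by -0.17 (adjusted p = 0.341), FABP4 by 0.23 (adjusted p = 0.832) and ANGPTL4 by 0.26 (adjusted p = 0.42). On the second day, with 4 Angus supplement arrays against 4 Angus and 4 Hereford pasture arrays and breed in the fit, LPL differed by -0.97 (adjusted p = 0.0432), FABP4 by -3.28 (adjusted p = 0.0169) and ANGPTL4 by 0.82 (adjusted p = 0.013). With scan day as a block over the LD arrays LPL differed by -0.37 (adjusted p = 0.153), and with slide as a random block the difference stayed at -0.72 with a larger standard error (0.27, adjusted p = 0.468). Each breed's supplement arrays make up 1 slide that holds nothing else, so within a breed slide and diet cannot be told apart. By the methods, the LD samples of the earlier slaughter included steers of both diets. The labels do not name the slaughter, so it cannot be told apart from diet, and its part in these differences was not tested. The moderated F test for a diet effect that varies with breed called none of the 9 genes, where 16.2% of all probes were called. At an unadjusted p under 0.05 there were 2 (LPL, adjusted p = 0.141, and FABP4, adjusted p = 0.128), beside 10926 of the 34227 probes.

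Some adipocyte markers were called with LPL. The adipocyte score was -0.21 on average on pasture and -1.04 with supplement, and 4 of the 11 markers were called lower with supplement (ADIPOQ, PLIN1, CIDEC and THRSP, the last at -2.88). Angus LD from pasture scanned on the second day had an adipocyte score of 0.73 (0.44 to 0.96) and Angus LD with supplement scanned that day -1.26 (-1.42 to -1.10). That contrast is of 1 breed on 1 scan day. On the first day, with Hereford and Wagyu x Angus arrays of both diets, limma called neither FABP4 (0.23, adjusted p = 0.832) nor LPL (-0.17, 0.341). The endothelium score was 0.09 on pasture and 0.46 with supplement, and 8 of its 11 genes were called higher, where 5.65% of all probes were called higher and 5.60% lower. The part of these cells in the LPL difference was not tested. Of the pathway lists, HSPG2, CAVIN1 and EHD2 were called higher with supplement and SORL1, SLC27A5 and ACSL1 lower, out of 1 called gene of 8 for lipase control, 1 of 8 receptors, 2 of 11 transport and synthetase genes and 2 of 7 caveola genes, beside 11.2% of all probes. None of the 6 PPAR and RXR genes was called by limma.

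**Figure D4:**
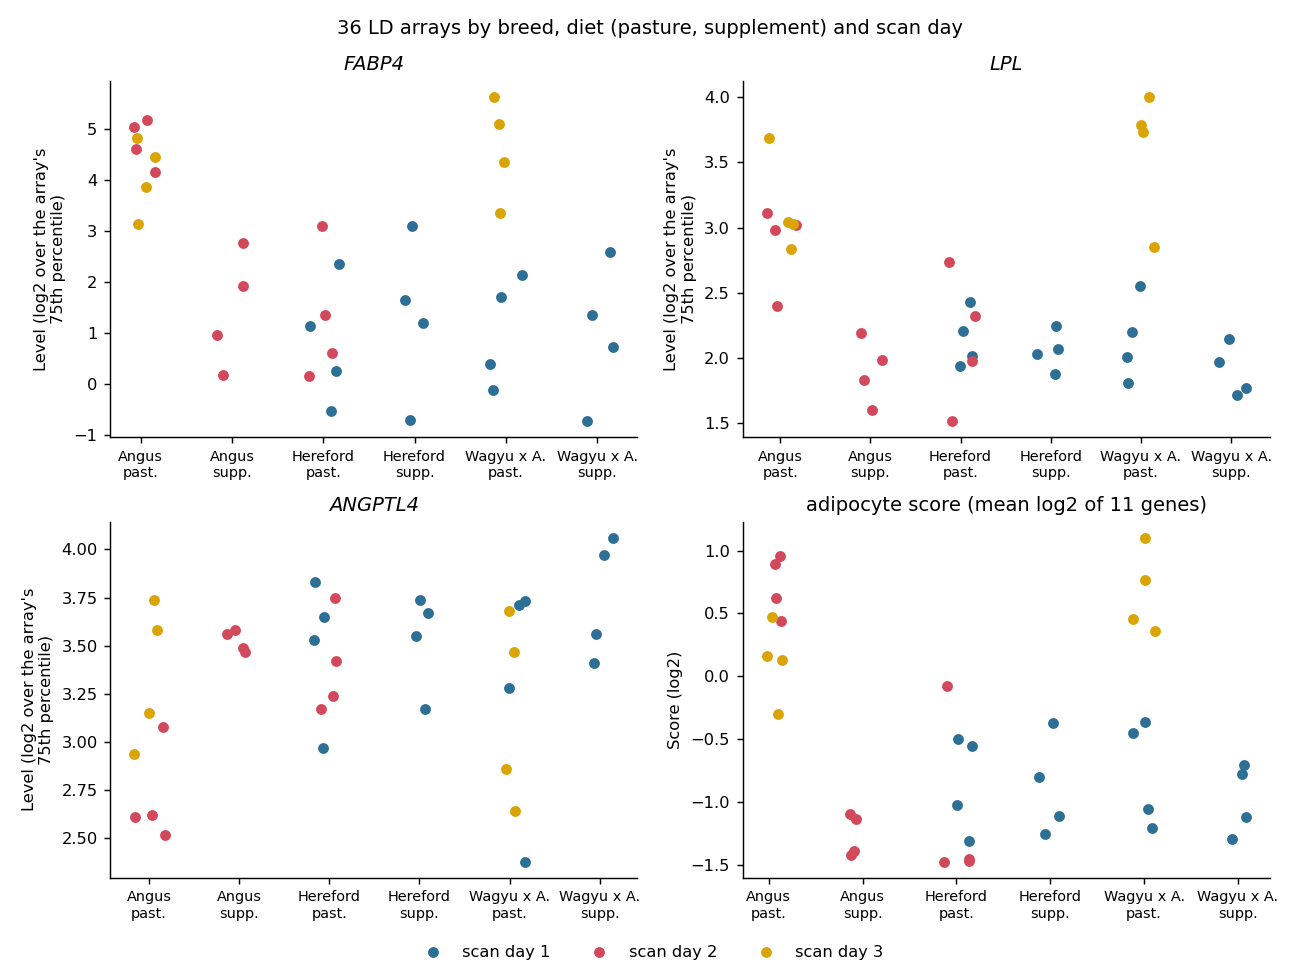
FABP4, LPL and ANGPTL4 (log2 over the array's 75th percentile) and the adipocyte score (mean of 11 genes) on the 36 LD arrays by breed and diet, coloured by scan day. FABP4, LPL and the adipocyte score are high together on the Angus pasture arrays and on the 4 Wagyu x Angus pasture arrays of the third day, whereas the adipocyte score is at most -0.37 on every supplement array.

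Across the 24 LD arrays from pasture, the adipocyte score correlated with FABP4 (r = 0.95, rho = 0.92), LPL (0.85 and 0.87), FABP3 (0.77 and 0.81), CD36 (0.64 and 0.62) and, negatively, ANGPTL4 (-0.45 and -0.46). By permutation test with adjustment over 9 genes the adjusted p of r was 4.5e-05 for FABP4 and LPL, 6e-05 for FABP3, 0.002 for CD36 and 0.0491 for ANGPTL4, where the unadjusted p of FABP4 and LPL, 1e-05, is the smallest that the 100000 resamples can give. Without the 2 arrays farthest from the median score, r was 0.935 for FABP4, 0.81 for LPL, 0.73 for FABP3, 0.63 for CD36 and -0.52 for ANGPTL4. Within the 3 scan days, of 8 arrays each, r was 0.935, 0.99 and 0.70 for FABP4 and 0.61, 0.86 and 0.85 for LPL, but -0.05, 0.35 and 0.77 for CD36 and -0.44, -0.81 and -0.06 for ANGPTL4. FABP3 had r of 0.56, 0.71 and 0.75 within the days. FABP3 thus rose with the adipocyte score in LD and with the myofibre score in IMF. FABP5 (r = -0.35), SLC27A1 (0.13), VLDLR (-0.19) and CAV1 (0.22) did not pass. Of the 34137 probes measured on all 24 arrays, 0.0381% had an r at least as far from 0 as FABP4, 0.349% as LPL, 1.64% as FABP3, 7.87% as CD36 and 24.6% as ANGPTL4. This relation was chosen after the data had been seen. The permutation over the 24 arrays treated them as exchangeable, although scan day, slide and breed differ among them. Within the days the unadjusted permutation p of r was 0.117, 0.00784 and 0.00199 for LPL and 0.135, 0.0311 and 0.0303 for FABP3. It was 0.00309, 5e-05 and 0.0479 for FABP4, 0.897, 0.382 and 0.0243 for CD36, and 0.287, 0.0228 and 0.892 for ANGPTL4.

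Breed differences were asked in 3 ways. Over the 60 fat arrays with depot in the fit, CAV1 was the 1 gene of 9 that the moderated F test called (adjusted p = 0.0301), where 3.20% of all probes were called. Between Wagyu x Angus and Hereford, 3 of 9 genes were called, all higher in Wagyu x Angus, against 3.50% of all probes (1.53% higher). They were ANGPTL4 (difference 0.46, standard error 0.13, adjusted p = 0.0265), CAV1 (0.45, 0.12, adjusted p = 0.0216) and VLDLR (0.46, 0.14, adjusted p = 0.0457). The Wagyu x Angus mean was above the Hereford mean in 5 of 5 depots for CAV1 and VLDLR and in 4 of 5 for ANGPTL4, with Omen as the exception. SC held the largest of the 5 breed differences of ANGPTL4 (0.83) and Omen the lowest (-0.14). In SC, ANGPTL4 ran from 4.65 to 5.08 in Wagyu x Angus and from 3.59 to 4.60 in Hereford. CAV1 in Kid ran from 6.26 to 6.44 in Wagyu x Angus and from 4.44 to 6.55 in Hereford. Kid held the largest of the 5 breed differences of CAV1 (0.78), and its 2 lowest Hereford arrays (4.44 and 5.13) are among the 3 Kid arrays with the highest macrophage and lowest adipocyte scores. Without those 3 arrays CAV1 differed between Wagyu x Angus and Hereford by 0.32 (adjusted p = 0.0447), ANGPTL4 by 0.50 (0.017) and VLDLR by 0.40 (0.0675, not called), where 5.81% of all probes were called.

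The other breed pairs gave no call. Wagyu x Angus minus Angus had none by limma (0.754% of all probes). ANGPTL4 and CAV1, 2 of the 9, were at an unadjusted p under 0.05 there, beside 4004 of the 34227 probes. Hereford minus Angus had none (0.567%), with 0 at an unadjusted p under 0.05. With scan day as a block over all arrays VLDLR alone was called between Wagyu x Angus and Hereford (0.35, adjusted p = 0.016; 7.53% of all probes), while ANGPTL4 was at 0.22 (0.193) and CAV1 at 0.26 (0.0668), and in the authors' unscaled values none was. ANGPTL4 was not called with slide as a random block (adjusted p = 0.0589), VLDLR not after quantile normalization (adjusted p = 0.0512) or normexp correction (0.0503), with all non-control probes (0.054), with the replicate number as a block (0.0514) or as the mean over its probes (0.0987), and the moderated F test of CAV1 over the 3 breeds not after quantile normalization (adjusted p = 0.0656), normexp correction (0.0615) or with scan day as a block over all arrays (0.0875). Within IMF no breed difference was called (0.0555% of all probes; 0 of 9 at an unadjusted p under 0.05). The moderated F tests for a breed dependence of IMF minus SC (0.00584% of all probes) and of all depot differences (0.00%) called none of the 9 genes, with 0 at an unadjusted p under 0.05. Arrays of a steer occur in several depots, so the p-values over depots may be too small.

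**Figure D5:**
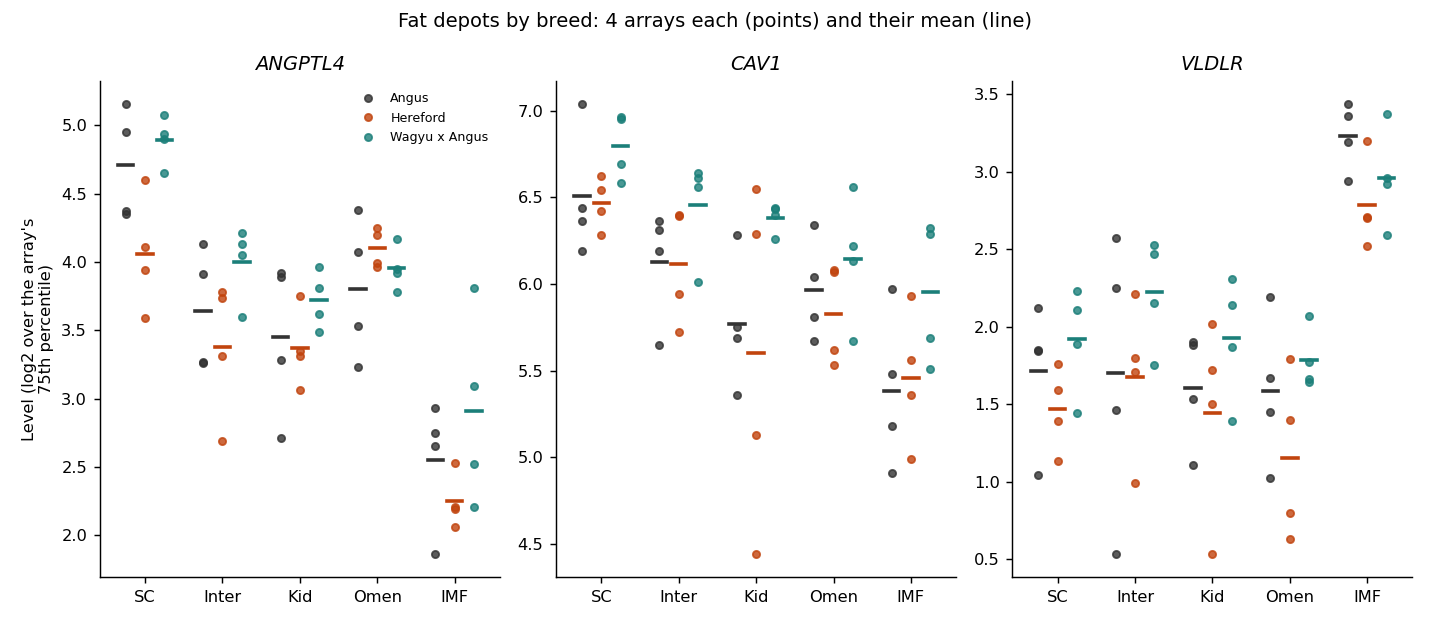
ANGPTL4, CAV1 and VLDLR (log2 over the array's 75th percentile) in the 5 fat depots by breed, with 4 arrays per breed and depot (points) and their mean (line). The Wagyu x Angus mean is above the Hereford mean in every depot for CAV1 and VLDLR and in all but Omen for ANGPTL4.

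In LD from pasture, FABP4 was the 1 gene of 9 called between breeds (adjusted p = 0.012), where 14.7% of all probes were called. At an unadjusted p under 0.05 there were 5 of the 9 genes, beside 12126 of the 34227 probes. FABP4 ran from 3.13 to 5.17 in Angus (median 4.53), from -0.12 to 5.62 in Wagyu x Angus (2.74) and from -0.52 to 3.09 in Hereford (0.88). No Hereford array reached an Angus array, while Wagyu x Angus fell into 4 arrays of the first scan day with a mean of 1.03 and 4 of the third with a mean of 4.60. With scan day as a block the adjusted p was 0.0698, and with slide as a random block 0.51. The adipocyte score differed alike, with -0.77 in the first set of Wagyu x Angus arrays and 0.67 in the second. Which slaughter each of these arrays came from is not in the labels, and slide, scan day and slaughter cannot be told apart within a breed.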

How the data were processed

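The authors dissected the tissues after slaughter, extracted total RNA, labelled it with Cy3 and scanned the arrays, and the deposited files hold the spot intensity as Agilent Feature Extraction gave it. Here log2 of the processed signal minus the array's 75th percentile over non-control probes was used, with outlier spots left out and spots of a probe averaged, for 34227 of 43653 probes. The authors' deposited log2 value table equals log2 of the median signal minus local background, within 0.0001 for all 3285792 values, so it is not scaled between arrays, and the mixed-model normalization of the methods was not repeated. Groups came from the labels, and the number of arrays limits the precision. Tests used limma 3.58.1 in R 4.3.3 (lmFit and eBayes), with breed in the LD diet fit and depot in the breed fit, and correlations used 100000 resamples. The fit was tested on simulated data. Genes were represented by their brightest probe. Genes outside the fixed lists were named as the 3 most correlated with a member over the fat arrays, or as the extremes of a list. The normexp alternative used the median spot signal, since the mean signal planned for it was not in the files. Members, lists and tests were chosen with earlier results of these data known. Alternatives covered scaling, background, filter, probe choice, slide, scan day, breed, replicate number and left-out arrays.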

Additional observations from a re-analysis of the deposited data

Results flagged for a closer look

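In 5 of 188 sets of a gene, tissue, breed and diet with 4 to 8 arrays, 1 array lay far from the others by Dixon's criterion, where chance gives about 1 in 20. CD36 in Kid of Hereford had a highest level of 5.82 with the next at 5.56. FABP4 in Inter of Angus had a highest level of 8.14 with the next at 8.01, and SLC27A1 in the same arrays 0.84 with the next at 0.37. SLC27A1 in LD of Hereford on pasture had a lowest level of 2.71 with the next at 3.01. CAV1 in Inter of Wagyu x Angus had a lowest level of 6.01 with the next at 6.56, on the Inter array with the highest myofibre score (5.20).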

How the results depend on the processing

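Among the differences that were called, the signs that turned were those of differences from SC, and a few others. With the probe listed in the study's tables, FABP4 differed from SC by 0.34 in Inter, 0.26 in Kid and 0.21 in Omen. After quantile normalization the brighter FABP4 probe differed by 0.0552 in Inter and 0.0431 in Omen, and with a block for scan day by 0.0448 in Omen. After normexp correction it differed by 0.0932 in Inter (called, adjusted p = 0.0153), 0.0105 in Kid and 0.0593 in Omen. In the authors' unscaled values, which move the median of all probes, FABP4 differed from SC by 0.37 in Inter, 0.33 in Kid and 0.39 in Omen, ANGPTL4 by 0.0806 in Inter and 0.26 in Omen, CAV1 by 0.67 in Inter, 0.26 in Kid and 0.21 in Omen, and SLC27A1 by 0.65 in Inter. In those values ANGPTL4 differed by 0.0375 between IMF and LD, and its r with the adipocyte score was 0.31. Within the second scan day ANGPTL4 differed by 0.0382 between Kid and Omen. Within the first, FABP4 differed by 0.23 between the diets, a difference that had not been called over all LD arrays. The causes were not tested.

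The number of genes called moved by over 1.5 times as follows, with the share of all probes called in the same fit in brackets. In the authors' values it was 8 for Inter (90.7%), 7 for Kid (77.8%) and 7 for Omen (84.8%) against SC, 0 for Inter minus Kid (8.6%), 1 for Inter minus Omen (19.7%), 1 for Kid minus Omen (4.17%), 3 for the diets (17.3%), 0 for breeds over the fat depots (0.888%) and 0 for Wagyu x Angus minus Hereford (0.882%). When the pair was blocked by scan day it was 0 for Omen minus SC (4.41%), 2 for IMF minus Kid (4.94%), 0 for Inter minus Kid (8.11%) and 0 for Kid minus Omen (0.821%), and with scan day over all arrays 5 for Omen minus SC (30.1%), 2 for Inter minus Kid (21.5%), 1 for Inter minus Omen (19.8%), 0 for the diets (4.69%) and 1 for Wagyu x Angus minus Hereford (7.53%). With scan day on the LD arrays it was 0 for the diets (6.74%) and 0 for breeds in LD (9.96%). Within the first scan day it was 0 for the diets (11.6%), and within the second 3 for the diets (6.12%), 0 for Inter minus Kid (8.48%) and 0 for Kid minus Omen (0.172%). With slide as a random block it was 0 for Inter minus Kid (3.16%), Kid minus Omen (5.29%), the diets (0.00292%) and breeds in LD (0%). Quantile normalization gave 0 for Inter minus Kid (14.2%) and 0 for breeds over the fat depots (2.88%), normexp correction 0 for the latter (2.59%), and centring on the mean 0 for Inter minus Kid (13.7%) and 0 for Kid minus Omen (7.61%). The mean over a gene's probes gave 1 (48.8%) and the spread from all fat arrays 2 (44.5%) for Inter minus SC, and all non-control probes gave 1 for Kid minus Omen (9.03%). Without the 3 Kid arrays highest in macrophage markers it was 1 for Kid minus Omen (10.9%) and 2 for breeds over the fat depots (5.05%). Smaller moves include 6 for Kid minus SC with centring (41.3%) and without the 3 Kid arrays (40.4%), 6 for IMF minus SC in the authors' values (69%), and for IMF minus LD 7 after quantile normalization (76.1%), 7 after normexp correction (74.9%) and 6 in the authors' values (73.6%). Of 124 differences that were not called, 27 passed in at least 1 alternative, 18 of them outside the authors' values. The causes of these moves were not tested. The comparisons within single scan days, the scan-day block on the LD arrays and the fits without the 3 Kid arrays were chosen after seeing the data.

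Leaving out 1 array kept all 9 calls between IMF and SC and gave 1 to 3 for the diets. FABP4 passed there without either of 2 Hereford supplement arrays, for example. The replicate number did not pair the arrays (mean correlation 0.0066 over 405 pairs that share a number), and the replicate block gave 1 call for Kid minus Omen (11.3%). Scan day could not be fitted as a block on the arrays of the pair alone for Inter minus SC and IMF minus Inter, for which the fit over all arrays called 3 and 7 genes (37.5% and 52.7%). Between 80.9% and 99.6% of probes were well above background.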
